A study of Mus musculus with 10 samples.

Results

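Lipid droplet coat and storage genes were described as 10 named genes of the expression table, out of 32074 gene symbols in all. They are Plin2, Plin3, Dgat1, Dgat2, Soat1, Pnpla2, Abhd5, Hilpda, Lipe and Mgll, chosen by symbol, and all 10 were found. The cells were microglia grown in primary culture from the cortex of CD-1 mouse pups, taken on postnatal day 2 to 4, kept in culture with 10% serum. Cultures received small extracellular vesicles (sEVs, membrane vesicles released by cells) isolated from mouse serum, or buffer alone, for 24 h in medium whose serum had been depleted of exosomes. The 3 groups were 1 µg of sEVs from mice with spared nerve injury (SNI sEV, 3 libraries), 1 µg of sEVs from sham-operated mice (sham sEV, 3 libraries) and phosphate-buffered saline (PBS, 4 libraries). The labels call the libraries biological replicates. They do not say how many mice gave serum or whether each library had its own vesicle preparation, so p-values measure only the spread between these libraries.

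A lipid droplet is a store of neutral lipid, mainly triacylglycerol and cholesteryl ester, wrapped in a phospholipid monolayer that carries coat proteins. Enzymes of the endoplasmic reticulum make the stored lipid, and a chain of lipases breaks it down in steps to free fatty acids. Microglia that take up myelin debris or are exposed to inflammatory signals are known to build up such droplets, and perilipin 2 is a widely used marker of them.

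Expression was measured by mRNA sequencing and deposited as TPM (transcripts per 1e+06 transcripts, a level corrected for transcript length). All 10 genes had at least 4.86 TPM in every library, so none entered or left through a filter on low values. TPM keeps no read total, so the depth of the libraries is unknown. Each gene was tested with limma on log2(TPM + 1), and a gene was called when its Benjamini-Hochberg adjusted p over the 14806 genes that averaged 1 TPM or more was under 0.05. Differences below are log2 fold changes of TPM + 1 with their standard error (SE). They understate the change of low genes.

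The sham sEV libraries stood apart from the rest. They had 14117 to 14166 genes at 1 TPM or more, against 14869 to 14900 in SNI sEV libraries and 14577 to 14973 in PBS libraries, and their 10 highest genes held 20.3% to 20.8% of the TPM, against 17.4% to 17.8% in SNI sEV and 16.7% to 17.7% in PBS libraries. The median gene differed by 0.24 between SNI sEV and sham sEV, by -0.01 between SNI sEV and PBS, and by -0.25 between sham sEV and PBS. Median-of-ratios scaling of the libraries took these medians to -0.004, -0.005 and -0.002, and quantile normalization to 0, -0.018 and -0.015. The deposited scale gave 7388 higher and 2319 lower calls for SNI sEV against sham sEV, and median-of-ratios scaling gave 4250 and 4466. For sham sEV against PBS the deposited scale gave 2437 higher and 7768 lower calls, and median-of-ratios scaling gave 4728 and 4579. Each small difference below is therefore read against the shift of the median gene. Fewer cells of a type and less RNA per cell cannot be told apart in these bulk libraries.

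In sham sEV cultures 8 of the 10 genes were called lower than in PBS cultures and 1, Lipe, was called higher. Over all genes tested, 52.5% were called lower and 16.5% higher in that comparison, so a call by itself says little, and the size of the difference carries more. The share of all genes whose libraries did not overlap between groups was not counted. Lack of overlap is therefore given below as a description only. In SNI sEV against sham sEV cultures 7 genes were called higher and 1, again Lipe, lower, beside 49.9% and 15.7% of all genes. In SNI sEV against PBS cultures 1 gene, Pnpla2, was called lower and 0 were called higher by limma, beside 2.36% and 2.97% of all genes. At an unadjusted p under 0.05 limma gave 2 lower (Pnpla2 and Plin3) and 1 higher (Lipe). At median-of-ratios scaling the counts were 6 lower and 2 higher for sham sEV against PBS, 6 higher and 3 lower for SNI sEV against sham sEV, and 0 for SNI sEV against PBS. The comparisons share libraries: the sham sEV libraries enter the comparisons with both of the other groups, and the PBS libraries those with both kinds of vesicle. The summed TPM of the 10 genes was 1375 to 1460.5 in SNI sEV libraries, 513 to 529 in sham sEV libraries and 1408 to 1582 in PBS libraries, and most of it was Plin2.

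**Figure D1:**
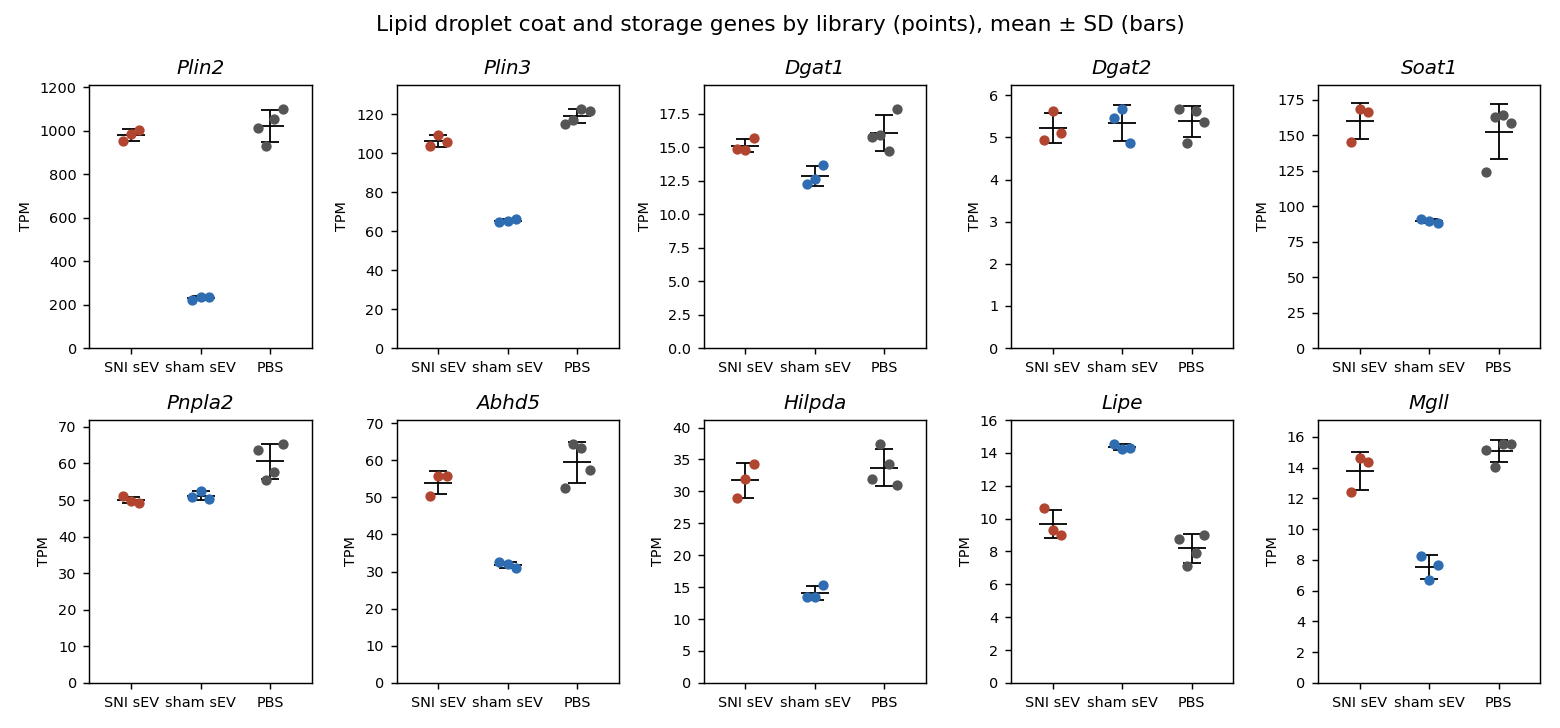
TPM of each of the 10 genes (vertical axis, from 0) in each library (points), with the mean and SD of each group (bars), for SNI sEV (3 libraries), sham sEV (3) and PBS (4). The sham sEV points lie below all other points for Plin2, Plin3, Dgat1, Soat1, Abhd5, Hilpda and Mgll and above all others for Lipe. The share of all genes that separate in this way was not counted, and 52.5% of all genes were called lower in sham sEV against PBS.

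Plin2 encodes perilipin 2, the coat protein that covers most droplets outside adipose tissue and shields their lipid from lipases. It lies on chromosome 4 at 86648386 to 86670060, minus strand, on GRCm38. It had 952, 987 and 1005 TPM in SNI sEV libraries, 220.3, 234 and 237 TPM in sham sEV libraries, and 1012, 928, 1055 and 1101 TPM in PBS libraries. The 3 sham sEV libraries were lowest with no overlap, and the SNI sEV and PBS libraries overlapped. Plin2 was 4.42-fold lower in sham sEV than in PBS cultures (log2 fold change -2.14, SE 0.059, limma adjusted p = 6.9e-11) and 4.24-fold higher in SNI sEV than in sham sEV cultures (2.09, SE 0.063, adjusted p = 2.7e-10). The difference between SNI sEV and PBS was -0.06, with a 95% interval of -0.19 to 0.07 (adjusted p = 0.65).

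The bases before the start of Plin2 are shown because no member moved further. They are 249 bases upstream of its RefSeq start, chr4:86670061-86670309 on the minus strand (GRCm38.p6, RefSeq). Capitals mark both matches to a loose pattern that was searched under the name NF-kappaB and is described below. The single base between the printed stretch and the start is annotated as exonic and is left out.
Plin2: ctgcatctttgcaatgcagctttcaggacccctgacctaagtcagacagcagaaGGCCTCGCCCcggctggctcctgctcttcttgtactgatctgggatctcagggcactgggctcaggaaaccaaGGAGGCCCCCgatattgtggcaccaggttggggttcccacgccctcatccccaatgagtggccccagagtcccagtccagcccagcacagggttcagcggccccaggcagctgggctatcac
The matches lie at -196 to -187 and at -123 to -114 counted back from the RefSeq start. The pattern has 10 bases and fixes only G at one end and C at the other, with any base between. A match therefore does not mark an NF-kappaB site. Of all 32851 RefSeq windows of this kind in the table, 45.8% hold a match to this pattern, so it is a common one.

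Plin3 encodes perilipin 3, a cytosolic perilipin that moves onto newly forming droplets (chromosome 17, 56277476 to 56292873, minus strand). It had 104, 109 and 106 TPM in SNI sEV libraries, 64.5, 65.1 and 66.1 TPM in sham sEV libraries, and 115, 117, 123 and 121 TPM in PBS libraries. The 3 groups did not overlap: sham sEV was lowest, SNI sEV next and PBS highest. The difference of sham sEV from PBS was -0.86 (SE 0.044, limma adjusted p = 9.9e-09) and that of SNI sEV from sham sEV was 0.69 (SE 0.047, adjusted p = 1.6e-07). SNI sEV differed from PBS by -0.16 (SE 0.044), which did not pass the test (adjusted p = 0.056). Plin3 changed less than Plin2, and their ratio within a library, which a single scale factor per library cannot alter, shows it. The Plin2 to Plin3 ratio of TPM was 9.03 to 9.52 in SNI sEV libraries, 3.41 to 3.60 in sham sEV libraries and 7.92 to 9.06 in PBS libraries.

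Of the 3 enzymes that make stored lipid, Soat1 changed and both DGAT enzymes depended on the scaling. Soat1, which esterifies cholesterol in the endoplasmic reticulum of macrophages (chromosome 1, 156424525 to 156474331, minus strand), had 146, 169 and 167 TPM in SNI sEV libraries, 91.0, 89.3 and 88.1 TPM in sham sEV libraries, and 124, 163, 164 and 159 TPM in PBS libraries. Every sham sEV library was below every other library. The lowest PBS library, replicate 1, lay apart from the other 3. The difference was -0.75 for sham sEV against PBS (SE 0.094, limma adjusted p = 2.4e-05) and 0.83 for SNI sEV against sham sEV (SE 0.10, adjusted p = 2.4e-05). For SNI sEV against PBS it was 0.08, with a 95% interval of -0.13 to 0.28 (adjusted p = 0.71), and it was -0.02 without PBS replicate 1.

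Dgat1 and Dgat2 encode the unrelated enzymes that add the last fatty acid to make triacylglycerol. Dgat1 (chromosome 15, 76502015 to 76511953, minus strand) had 14.9, 14.8 and 15.7 TPM in SNI sEV libraries, 12.2, 12.6 and 13.7 TPM in sham sEV libraries, and 15.7, 15.9, 14.7 and 17.8 TPM in PBS libraries. On the deposited scale it was called lower in sham sEV than in PBS (-0.30, SE 0.071, limma adjusted p = 0.0029) and higher in SNI sEV than in sham sEV (0.22, SE 0.076, adjusted p = 0.024), both close to the shift of the median gene. Under median-of-ratios scaling these differences were -0.04 (adjusted p = 0.68) and -0.04 (adjusted p = 0.69), so neither call held. The call for SNI sEV against sham sEV was also absent without SNI sEV replicate 3 (0.20, adjusted p = 0.084), sham sEV replicate 1 (0.19, adjusted p = 0.088) or sham sEV replicate 2 (0.21, adjusted p = 0.07). Dgat2 (chromosome 7, 99153658 to 99182719, minus strand) was the lowest of the 10 genes, with 4.95, 5.63 and 5.09 TPM in SNI sEV libraries, 5.47, 5.68 and 4.86 TPM in sham sEV libraries, and 5.67, 4.87, 5.62 and 5.36 TPM in PBS libraries. The 3 groups overlapped, and no comparison was called on the deposited scale. The sham sEV difference from PBS was -0.01, with a 95% interval of -0.18 to 0.16 (limma adjusted p = 0.92). Median-of-ratios scaling gave 0.23 for sham sEV against PBS (adjusted p = 0.025) and -0.26 for SNI sEV against sham sEV (adjusted p = 0.021), both called. The Dgat1 to Dgat2 ratio within a library was 2.63 to 3.08 in SNI sEV, 2.22 to 2.81 in sham sEV and 2.61 to 3.33 in PBS libraries, with overlap between all 3 groups.

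**Figure D2:**
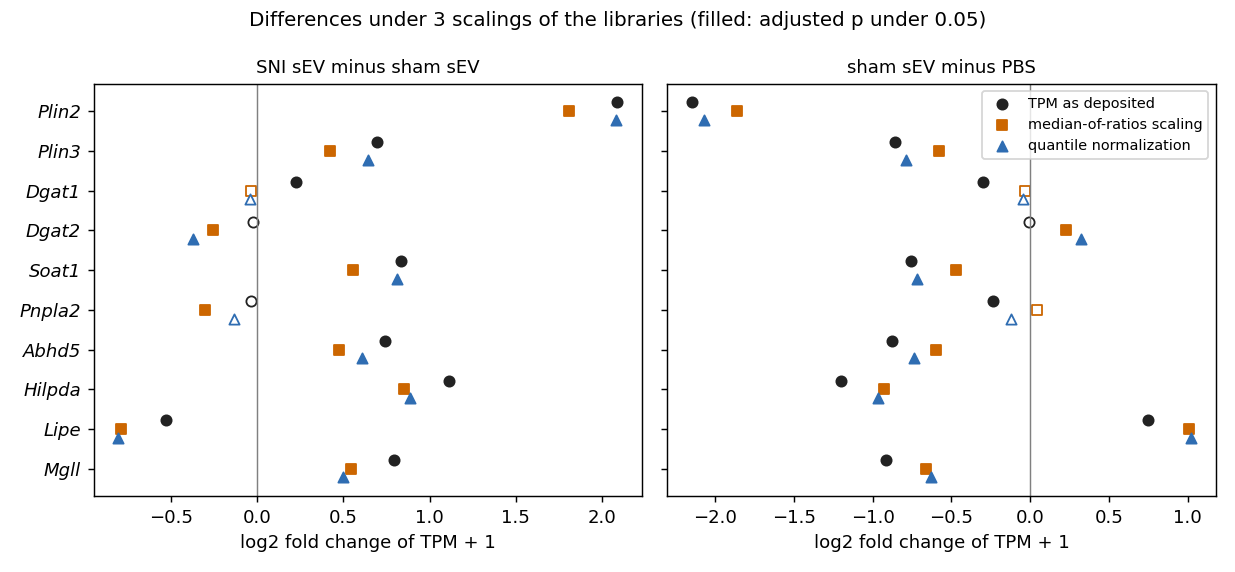
Log2 fold change of TPM + 1 (horizontal axis) of each gene for SNI sEV minus sham sEV (left) and sham sEV minus PBS (right), on the deposited scale (circles), after median-of-ratios scaling (squares) and after quantile normalization (triangles), filled where the adjusted p was under 0.05. Plin2, Plin3, Soat1, Abhd5, Hilpda, Lipe and Mgll keep their side of 0 and their call under all 3, and Dgat1, Dgat2 and Pnpla2 do not.

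The lipase that opens triacylglycerol breakdown and its partners did not move together. Pnpla2 encodes adipose triglyceride lipase, which removes the first fatty acid from triacylglycerol (chromosome 7, 141455198 to 141460743, plus strand). It had 51.0, 49.8 and 49.3 TPM in SNI sEV libraries, 50.8, 52.5 and 50.3 TPM in sham sEV libraries, and 63.6, 55.5, 57.7 and 65.4 TPM in PBS libraries. Both vesicle groups lay below every PBS library and overlapped each other. Pnpla2 was the only member called for SNI sEV against PBS (-0.27, SE 0.061, limma adjusted p = 0.028). With the replicate number as a block the adjusted p was 0.063 (difference -0.23), and the call was absent in 9 of 21 alternatives, among them each fit without 1 SNI sEV library and the fit without PBS replicate 4. For sham sEV against PBS the difference was -0.23 (SE 0.061, adjusted p = 0.0049), the same size as the shift of the median gene, and it was 0.05 under median-of-ratios scaling (adjusted p = 0.58). Between SNI sEV and sham sEV it was -0.03 (95% interval -0.18 to 0.11, adjusted p = 0.67), and under median-of-ratios scaling -0.30 with a call (adjusted p = 0.0039).

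Abhd5 encodes CGI-58, the coactivator that adipose triglyceride lipase needs for full activity (chromosome 9, 122351608 to 122381524, plus strand). It had 50.3, 55.9 and 55.7 TPM in SNI sEV libraries, 32.6, 31.9 and 31.0 TPM in sham sEV libraries, and 52.6, 64.5, 63.3 and 57.3 TPM in PBS libraries. Sham sEV libraries were lowest without overlap. The difference was -0.87 for sham sEV against PBS (SE 0.073, limma adjusted p = 8.2e-07), 0.74 for SNI sEV against sham sEV (SE 0.078, adjusted p = 8.1e-06) and -0.13 for SNI sEV against PBS (95% interval -0.29 to 0.03, adjusted p = 0.37). The Pnpla2 to Abhd5 ratio within a library was highest in sham sEV cultures. It was 0.886 to 1.01 in SNI sEV libraries, 1.56 to 1.65 in sham sEV libraries and 0.862 to 1.21 in PBS libraries.

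Hilpda encodes a small droplet protein, induced by hypoxia and by fatty acids, that inhibits adipose triglyceride lipase (chromosome 6, 29272488 to 29275446, plus strand). It had 28.9, 31.98 and 34.3 TPM in SNI sEV libraries, 13.5, 13.4 and 15.4 TPM in sham sEV libraries, and 31.98, 37.5, 34.3 and 31.0 TPM in PBS libraries. Sham sEV libraries were again lowest without overlap. Hilpda was 2.29-fold lower in sham sEV than in PBS (log2 fold change -1.20, SE 0.082, limma adjusted p = 1.4e-07) and 2.17-fold higher in SNI sEV than in sham sEV (1.11, SE 0.088, adjusted p = 6.8e-07). SNI sEV differed from PBS by -0.08 (95% interval -0.27 to 0.10, adjusted p = 0.64). The ratio of this inhibitor to Pnpla2 was 0.567 to 0.695 in SNI sEV libraries, 0.256 to 0.305 in sham sEV libraries and 0.474 to 0.675 in PBS libraries. Inhibitor and coactivator of the lipase were thus both lower in sham sEV cultures, and the lipase transcript differed from PBS by no more than the median gene.

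**Figure D3:**
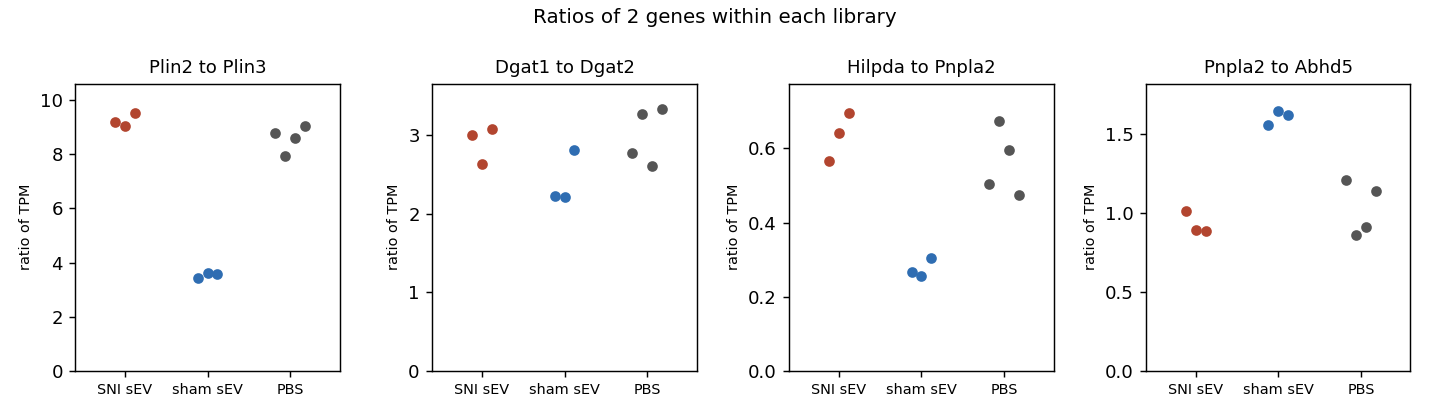
Ratio of the TPM of a pair of genes within each library (points, vertical axis from 0) for SNI sEV, sham sEV and PBS. The sham sEV libraries lie below all others for Plin2 to Plin3 and Hilpda to Pnpla2, above all others for Pnpla2 to Abhd5, and overlap them for Dgat1 to Dgat2.

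The lipases that follow moved in opposite directions. Lipe encodes hormone-sensitive lipase, which cleaves diacylglycerol and cholesteryl ester (chromosome 7, 25379527 to 25398710, minus strand). It had 10.6, 9.29 and 9.03 TPM in SNI sEV libraries, 14.6, 14.2 and 14.3 TPM in sham sEV libraries, and 8.73, 7.09, 7.93 and 9.01 TPM in PBS libraries. It was the only member that was highest in sham sEV cultures, where it was 0.75 above PBS (SE 0.085, limma adjusted p = 1.1e-05). SNI sEV was 0.53 below sham sEV (log2 fold change -0.53, SE 0.090, adjusted p = 0.00034). SNI sEV differed from PBS by 0.22 (95% interval 0.03 to 0.40), and this did not pass the test (adjusted p = 0.2). The lowest SNI sEV library (9.03 TPM) was next to the highest PBS library (9.01 TPM).

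Mgll encodes monoacylglycerol lipase, which splits monoacylglycerol in the last step and in brain is the main enzyme that removes the endocannabinoid 2-arachidonoylglycerol (2-AG). It lies on chromosome 6 at 88724412 to 88828360, plus strand. It had 12.4, 14.6 and 14.4 TPM in SNI sEV libraries, 8.26, 6.68 and 7.67 TPM in sham sEV libraries, and 15.1, 14.0, 15.6 and 15.6 TPM in PBS libraries. Sham sEV libraries were lowest without overlap. The difference was -0.92 for sham sEV against PBS (SE 0.083, limma adjusted p = 1.6e-06), 0.79 for SNI sEV against sham sEV (SE 0.088, adjusted p = 1.2e-05) and -0.12 for SNI sEV against PBS (95% interval -0.30 to 0.06, adjusted p = 0.48). Lipe, Mgll, Abhd5 and Soat1 overlap genes annotated on the other strand, and Mgll also genes on its own strand. The strand setting of the counting is not given in the sources used here. The expression table holds 3 of these neighbours, all on the other strand, at mean levels of 0.278 TPM beside Lipe, 0.0139 TPM beside Mgll and 0.0696 TPM beside Abhd5, and the others were not analysed here.

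**Figure D4:**
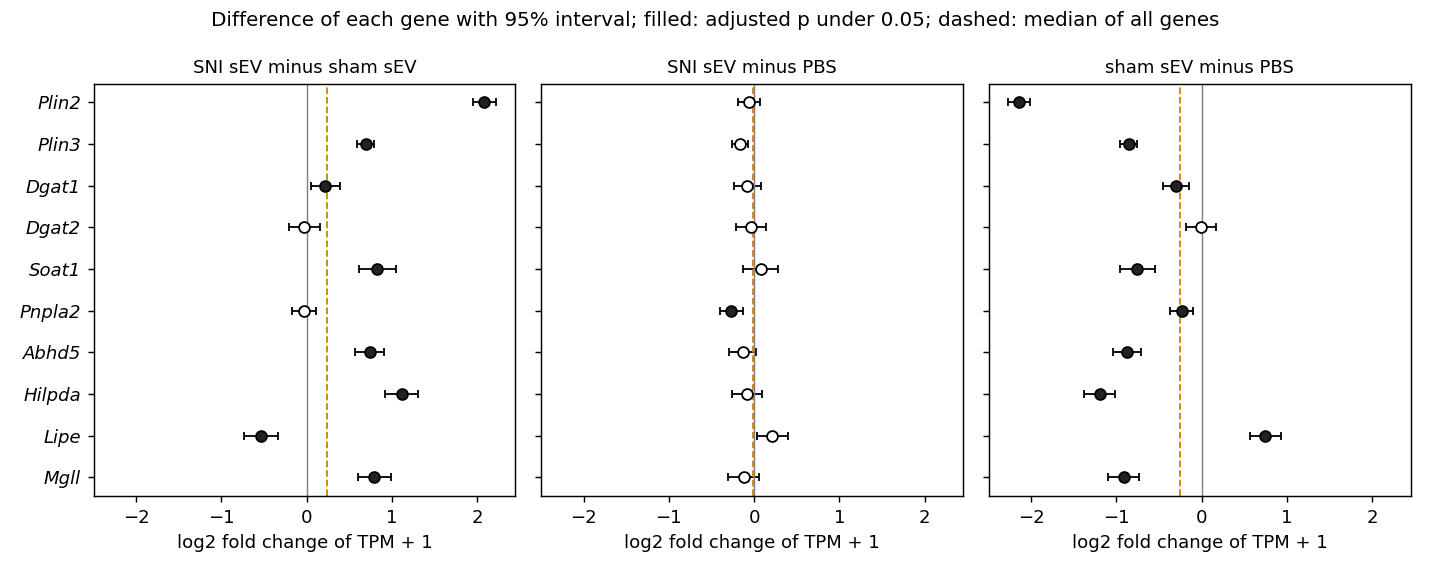
Log2 fold change of TPM + 1 (horizontal axis) of each gene with its 95% interval for SNI sEV minus sham sEV, SNI sEV minus PBS and sham sEV minus PBS, filled where the adjusted p was under 0.05. The dashed line is the median of all genes tested (0.24, -0.01 and -0.25). Plin2 is farthest from it in the comparisons with sham sEV, and for SNI sEV minus PBS Pnpla2 alone is filled.

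The windows before the starts of the other genes were searched as well, because Hilpda is a known hypoxia target. RefSeq promoter windows matched 8 of the 10 genes, in 11 windows of 250 bases upstream, and Dgat1 and Dgat2 had none. The hypoxia response core ACGTG, searched on both strands, was in 4 of 11 windows, of Hilpda, Mgll and Lipe, against 16.6% of all 32851 windows. The core holds a CG pair, the windows with it hold 18 to 40 such pairs, and base content was not allowed for. Both starts of Mgll are counted among the 4. No enrichment of hypoxia sites is therefore read from this count. The stretches are shown with the core in capitals, extended to CACGTG where both strands match. They come from RefSeq on GRCm38.p6, at chr6:29272571-29272600 (plus strand), chr6:88724356-88724385 (plus), chr6:88724534-88724563 (plus) and chr7:25396125-25396154 (minus), and all lie in annotated exons of some transcript. Hilpda and Lipe each had another window, before a different start, without the core. The Hilpda stretch lies after the gene start given above (29272488) and before a later RefSeq start.
Hilpda: gatggccagcggACGTGccccagggcgagc
Mgll, start 1: gggggccgggcaCACGTGgggccccggcgc
Mgll, start 2: ggtgctcggggaACGTGacagcggcgctcg
Lipe: aacagggacgacCACGTGagggggcggagg
Hilpda and Mgll were lower in sham sEV than in PBS and Lipe was higher, so genes with this core were found on both sides. The loose pattern searched under the name NF-kappaB was in 9 of 11 windows, against 45.8% of all windows. Its fixed positions are all G or C, and the GC content of the windows was not allowed for. No enrichment of NF-kappaB sites is therefore read from these counts. The interferon-stimulated response element (2.98% of all windows), the TATA box TATAAA (12.4%) and the PPAR response element (0.0335%) were in 0 of the 11 windows. A match is a run of letters and not a measured site.

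In the authors' deposited table of comparisons, whose 2375 genes all had a fold of at least 2 in 1 or more of the 3 comparisons, 2 of the 10 genes appeared. The authors' deposited table gave Plin2 a signed fold change of 4.24 for SNI sEV against sham sEV (FDR 7.49e-05), -1.04 for SNI sEV against PBS (FDR 0.768) and -4.42 for sham sEV against PBS (FDR 2.42e-05). The authors' deposited table gave Hilpda 2.17 for SNI sEV against sham sEV (FDR 0.00116), -1.06 for SNI sEV against PBS (FDR 0.758) and -2.29 for sham sEV against PBS (FDR 0.00028). The sizes of these folds equal those computed here from TPM + 1 of the same libraries, so the match is no independent check.

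Genes of the surrounding pathway were described by lists. Their counts of calls stand beside 52.5% lower and 16.5% higher over all genes in sham sEV against PBS. For SNI sEV against sham sEV these shares were 49.9% higher and 15.7% lower, and for SNI sEV against PBS 2.36% lower and 2.97% higher. Of other coat and assembly genes 10 were tested. In sham sEV against PBS 5 were called lower and 1 higher (median -0.24, beside -0.25 over all genes), and 6 higher and 1 lower in SNI sEV against sham sEV. Under median-of-ratios scaling these became 1 lower and 3 higher, and 1 higher and 3 lower. Hsd17b11, a droplet-bound dehydrogenase, averaged 155 ± 3.10 TPM in SNI sEV, 80.4 ± 2.12 TPM in sham sEV and 145 ± 10.2 TPM in PBS libraries (SD, n = 3, 3 and 4), and its sham sEV difference from PBS was -0.84 (SE 0.057, limma adjusted p = 1.3e-07). Bscl2, which encodes the droplet assembly factor seipin, averaged 42.4 ± 0.811 TPM in SNI sEV, 31.5 ± 0.696 TPM in sham sEV and 43.9 ± 4.26 TPM in PBS libraries (-0.46 for sham sEV against PBS, adjusted p = 0.00011), and lost the call under median-of-ratios scaling (-0.18, adjusted p = 0.087).

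Enzymes of glycerolipid synthesis before the DGAT step split. In sham sEV against PBS 5 of 11 were called higher and 5 lower (median -0.18, beside -0.25 over all genes), with 5 and 3 under median-of-ratios scaling and 5 and 2 under quantile normalization. In SNI sEV against sham sEV 6 were called higher and 4 lower (median 0.23, beside 0.24), but median-of-ratios scaling turned this to 4 higher and 5 lower and quantile normalization to 2 and 5. On the deposited scale 52.5% of all genes were called lower and 16.5% higher in sham sEV against PBS. The shares were 49.9% higher and 15.7% lower in SNI sEV against sham sEV. Agpat3, an acyltransferase that makes phosphatidic acid, averaged 55.4 ± 1.73 TPM in SNI sEV, 112 ± 3.67 TPM in sham sEV and 48.2 ± 3.85 TPM in PBS libraries. It was 1.20 higher in sham sEV than in PBS (SE 0.063, limma adjusted p = 1.3e-08). Gpat4, which adds the first fatty acid to glycerol phosphate, rose by 0.37 (adjusted p = 3.3e-05), and Gpat3, a low isoenzyme with 1.61 ± 0.173 TPM in sham sEV and 3.04 ± 0.520 TPM in PBS libraries, fell by 0.62 (adjusted p = 0.00025).

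Of 14 other lipid hydrolases and related genes tested, 11 were called lower and 2, Pnpla8 and Soat2, higher in sham sEV cultures against PBS (median -1.10, beside -0.25 over all genes; median-of-ratios scaling gave 10 and 3). In SNI sEV against sham sEV 11 were called higher and 2 lower (median 1.13, beside 0.24), and in SNI sEV against PBS limma called 0 in either direction, also at an unadjusted p under 0.05. Of all genes 52.5% were called lower in sham sEV against PBS and 49.9% higher in SNI sEV against sham sEV. Lpl, the lipase that frees fatty acids from lipoproteins, averaged 2437 ± 193 TPM in SNI sEV, 603 ± 16.4 TPM in sham sEV and 2360 ± 280 TPM in PBS libraries (-1.96 for sham sEV against PBS, SE 0.090, limma adjusted p = 4.4e-09). Lipa, the lysosomal acid lipase, averaged 1297 ± 105 TPM in SNI sEV, 391 ± 11.6 TPM in sham sEV and 1288 ± 178 TPM in PBS libraries. Abhd12, which also acts on 2-AG, averaged 688 ± 16.6 TPM in SNI sEV, 287 ± 5.57 TPM in sham sEV and 697 ± 45.5 TPM in PBS libraries. Pnpla7, a lysophospholipase, averaged 58.0 ± 1.67 TPM in SNI sEV, 17.7 ± 0.0859 TPM in sham sEV and 62.4 ± 5.22 TPM in PBS libraries. These 4 genes were lowest in the sham sEV libraries, like Plin2 and Soat1. Soat2, a second cholesterol-esterifying enzyme placed in this list, was highest there, with 1.80 ± 0.183 TPM in SNI sEV, 8.99 ± 0.368 TPM in sham sEV and 1.73 ± 0.277 TPM in PBS libraries (1.88 for sham sEV against PBS, SE 0.091, adjusted p = 6.7e-09).

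Genes of 2-AG signalling, to which Mgll also belongs, were called lower in 6 and higher in 1 of 9 for sham sEV against PBS, and higher in 6 and lower in 1 for SNI sEV against sham sEV. The list medians were -0.65 and 0.79, beside -0.25 and 0.24 over all genes, of which 52.5% were called lower in the comparison of sham sEV with PBS and 49.9% higher in that of SNI sEV with sham sEV. Abhd6 and Abhd12 stand in both this list and the hydrolase list. Daglb, which makes 2-AG, averaged 99.7 ± 0.876 TPM in SNI sEV, 28.2 ± 0.337 TPM in sham sEV and 113 ± 7.72 TPM in PBS libraries (-1.97 for sham sEV against PBS, SE 0.055, limma adjusted p = 7.8e-11). Cnr2, the cannabinoid receptor of immune cells, averaged 13.2 ± 1.29 TPM in SNI sEV, 1.71 ± 0.199 TPM in sham sEV and 16.8 ± 1.67 TPM in PBS libraries (-2.72, SE 0.095, adjusted p = 4.4e-10). Napepld, which makes N-acyl lipid signals, a class apart from 2-AG, was the 1 gene higher in sham sEV. It averaged 6.81 ± 0.330 TPM in SNI sEV, 29.1 ± 1.76 TPM in sham sEV and 7.35 ± 0.610 TPM in PBS libraries (1.85 for sham sEV against PBS, SE 0.075, limma adjusted p = 1.5e-09).

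Fatty acid uptake and activation went both ways, with 8 of 16 called higher and 5 lower in sham sEV against PBS (median 0.27, beside -0.25 over all genes). For SNI sEV against sham sEV 6 were called higher and 6 lower on the deposited scale (median -0.15, beside 0.24), 4 higher and 9 lower under median-of-ratios scaling, and 4 and 8 under quantile normalization. Over all genes on the deposited scale, 16.5% were called higher and 52.5% lower in sham sEV against PBS. In SNI sEV against sham sEV 49.9% were called higher and 15.7% lower. Both acyl-CoA synthetases Acsl5 and Acsl1, which activate fatty acids, were higher in sham sEV: Acsl5 averaged 135 ± 4.53 TPM in SNI sEV, 577 ± 25.1 TPM in sham sEV and 123 ± 5.77 TPM in PBS libraries, and Acsl1 13.1 ± 0.917 TPM in SNI sEV, 73.3 ± 3.43 TPM in sham sEV and 12.3 ± 1.56 TPM in PBS libraries. Their sham sEV differences from PBS were 2.22 (SE 0.051, limma adjusted p = 2.2e-11) and 2.48 (SE 0.091, adjusted p = 6.8e-10). Slc27a1, a fatty acid transporter, was lower (-1.21, SE 0.070, adjusted p = 3.1e-08). Fabp5, a fatty acid binding protein, was the 1 gene of the list called for SNI sEV against PBS, with 989 ± 27.4 TPM in SNI sEV and 812 ± 44.0 TPM in PBS libraries (0.29, SE 0.049, adjusted p = 0.0058). At an unadjusted p under 0.05 limma gave 5 of the 16 higher and 1 lower there.

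Of 21 genes of fatty acid oxidation, 14 were called lower and 1 higher in sham sEV against PBS (median -0.29, beside -0.25 over all genes), and median-of-ratios scaling gave 10 lower and 6 higher. SNI sEV against sham sEV gave 12 called higher and 1 lower, and 9 higher and 8 lower under that scaling. Of all genes on the deposited scale, 52.5% were called lower and 16.5% higher in sham sEV against PBS. In SNI sEV against sham sEV 49.9% were called higher and 15.7% lower. Acaa2, Hadh and Acadl, enzymes of the mitochondrial spiral, differed by -1.47, -1.36 and -1.21 in sham sEV against PBS (SE 0.067, 0.070 and 0.064, limma adjusted p = 4.2e-09, 1.2e-08 and 1.5e-08), and each kept its call under both other scalings. Acads was called lower in SNI sEV against PBS, with 62.9 ± 0.480 TPM in SNI sEV and 75.1 ± 5.24 TPM in PBS libraries (-0.25, SE 0.061, adjusted p = 0.038), but not under median-of-ratios scaling (adjusted p = 0.11). At an unadjusted p under 0.05 limma gave 8 of the 21 lower and 0 higher in that comparison. The list median was -0.10, beside -0.01 over all genes.

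**Figure D5:**
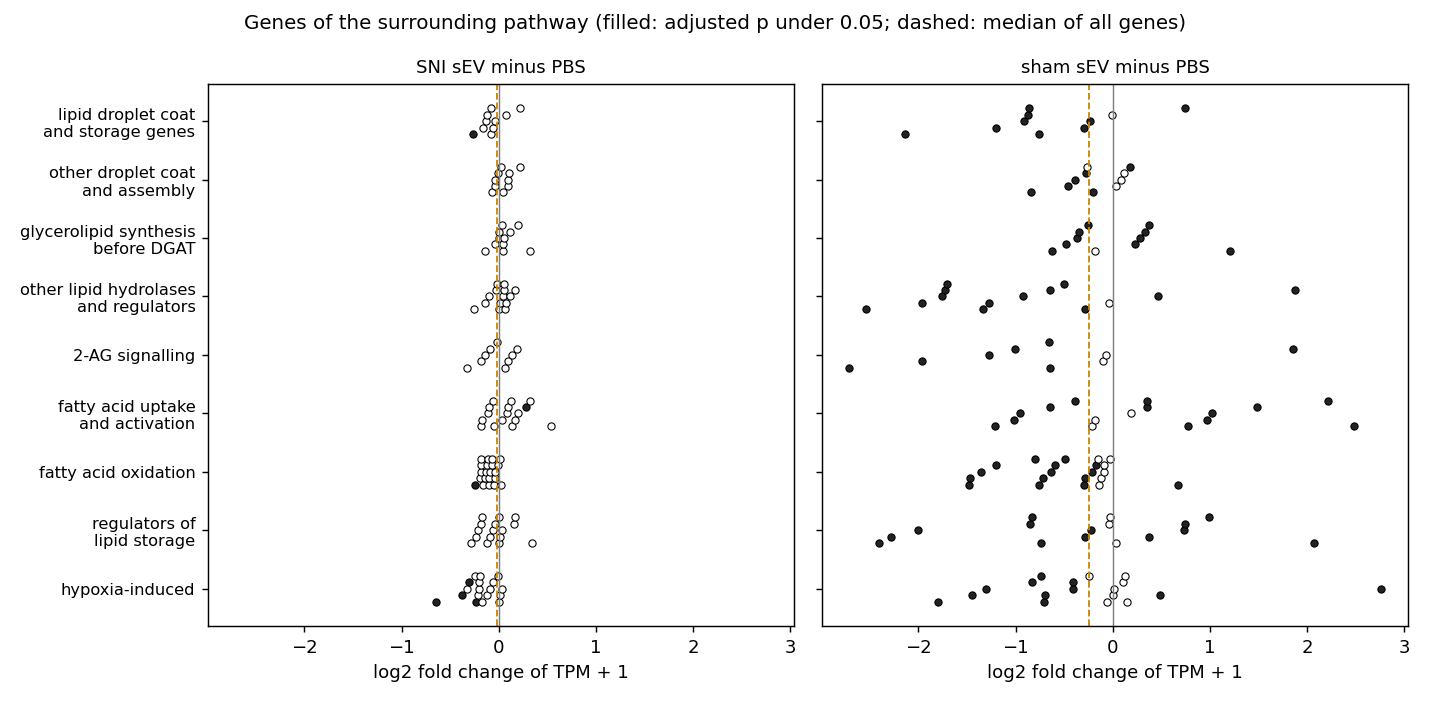
Log2 fold change of TPM + 1 (horizontal axis) of each tested gene of the lipid droplet set (top row) and of 8 lists of the surrounding pathway, for SNI sEV minus PBS (left) and sham sEV minus PBS (right), filled where the adjusted p was under 0.05, with the median of all genes as a dashed line. On the left the points lie between -0.64 (Ankrd37) and 0.53 (Cd36), and on the right between -2.72 (Cnr2) and 2.76 (Adm).

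Regulators of lipid storage went both ways. Of 16 tested, 8 were called lower and 5 higher in sham sEV against PBS (median -0.13, beside -0.25 over all genes), but median-of-ratios scaling turned the balance to 6 lower and 8 higher and quantile normalization to 6 and 7. For SNI sEV against sham sEV 6 were called higher and 6 lower, with 6 and 7 under median-of-ratios scaling and 5 and 7 under quantile normalization. Of all genes 52.5% were called lower and 16.5% higher in the sham sEV comparison with PBS, and 49.9% higher and 15.7% lower in that of SNI sEV with sham sEV. Pparg, a nuclear receptor for fatty acids, averaged 8.68 ± 0.533 TPM in SNI sEV, 1.41 ± 0.186 TPM in sham sEV and 8.66 ± 0.557 TPM in PBS libraries (-2.01 for sham sEV against PBS, SE 0.080, limma adjusted p = 1.4e-09). Cebpa, a factor of fat and myeloid cells, averaged 76.4 ± 2.31 TPM in SNI sEV, 17.3 ± 0.799 TPM in sham sEV and 88.6 ± 5.47 TPM in PBS libraries (-2.29, SE 0.059, adjusted p = 4.5e-11). Epas1, the hypoxia-inducible factor HIF-2 alpha, averaged 15.8 ± 0.783 TPM in SNI sEV, 2.84 ± 0.206 TPM in sham sEV and 19.5 ± 2.24 TPM in PBS libraries (-2.41, SE 0.089, adjusted p = 7.4e-10). Each of these 3 was lowest in sham sEV libraries, as Plin2 and Hilpda were. Others were highest there: Nr1h3, the oxysterol receptor LXR alpha, averaged 11.7 ± 0.490 TPM in SNI sEV, 41.2 ± 2.33 TPM in sham sEV and 9.09 ± 1.22 TPM in PBS libraries (2.07, SE 0.090, adjusted p = 2.8e-09). Hif1a, the hypoxia-inducible factor HIF-1 alpha, was 0.99 higher in sham sEV than in PBS (SE 0.107, adjusted p = 7.4e-06).

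Hypoxia-induced genes, the group to which Hilpda is usually assigned, went both ways. In sham sEV against PBS 9 of 18 were called lower and 2 higher, and median-of-ratios scaling gave 9 lower and 7 higher. The list median was -0.33, beside -0.25 over all genes, of which 52.5% were called lower and 16.5% higher. SNI sEV against sham sEV gave 9 called higher and 6 lower, but median-of-ratios scaling gave 6 higher and 8 lower and quantile normalization 7 and 7. The list median was 0.30 on the deposited scale, beside 0.24 over all genes, of which 49.9% were called higher and 15.7% lower. Mxi1 and Ndrg1 were lower in sham sEV than in PBS (-1.45, SE 0.057, limma adjusted p = 1.1e-09 and -1.30, SE 0.079, adjusted p = 4.7e-08), and Adm, which encodes adrenomedullin, was higher, with 0.978 ± 0.112 TPM in SNI sEV, 13.6 ± 0.946 TPM in sham sEV and 1.16 ± 0.292 TPM in PBS libraries. In SNI sEV against PBS 2.36% of all genes were called lower and 2.97% higher. Of the 18, 4 were called lower and 0 higher by limma (median -0.20, beside -0.01), and 7 and 0 at an unadjusted p under 0.05. They include Slc2a1, the glucose transporter GLUT1, with 100.1 ± 4.14 TPM in SNI sEV and 124 ± 2.56 TPM in PBS libraries (-0.30, SE 0.045, adjusted p = 0.0021), Ankrd37 (-0.64, SE 0.130, adjusted p = 0.014) and Ndrg1 (-0.38, SE 0.079, adjusted p = 0.017). Hilpda itself differed by -0.08 there and was not called.

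Markers of cell types were summed beside these results. All 14 microglia and macrophage genes had a mean of at least 1 TPM, among them C1qa and Cd68, and their sum was 11020 to 11577 TPM in SNI sEV, 10131 to 10473 TPM in sham sEV and 9546 to 10280 TPM in PBS libraries, so the labelled cell type was present in every group. Of adipocyte markers Fabp4 alone exceeded 1 TPM, and the other 6 of 7 were below 0.1 TPM. The sum of these 7 was 159 to 168 TPM in SNI sEV, 52.4 to 60.4 TPM in sham sEV and 130 to 164 TPM in PBS libraries. Astrocyte markers summed to 169 to 175 TPM in SNI sEV, 91.6 to 104 TPM in sham sEV and 149 to 171 TPM in PBS libraries, with 10 of 11 called lower and 0 higher by limma in sham sEV against PBS (the same at an unadjusted p under 0.05). The list median was -0.55, beside -0.25 over all genes, of which 52.5% were called lower and 16.5% higher. Median-of-ratios scaling gave 9 lower and 0 higher, and quantile normalization 5 lower and 1 higher. Oligodendrocyte lineage markers summed to 655 to 728 TPM in SNI sEV, 428 to 476 TPM in sham sEV and 597 to 685 TPM in PBS libraries. In sham sEV against PBS 10 of 11 were called lower and 0 higher by limma (the same at an unadjusted p under 0.05). The list median was -0.42, beside the same -0.25. Median-of-ratios scaling gave 5 lower and quantile normalization 7 lower. Neuron markers summed to 26.0 to 29.3 TPM in SNI sEV, 24.0 to 28.8 TPM in sham sEV and 24.2 to 35.0 TPM in PBS libraries, and fibroblast, mural and endothelial markers to 36.2 to 41.1 TPM in SNI sEV, 19.7 to 23.1 TPM in sham sEV and 28.7 to 37.7 TPM in PBS libraries. The astrocyte and oligodendrocyte sums moved with Plin2, Plin3, Soat1, Abhd5, Hilpda and Mgll, and their part in those results was not tested.

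For each gene the nearest pattern among 10880 other genes was found by Pearson's r of log2(TPM + 1) over the 10 libraries, as a description. The libraries are shared by all pairs and the sham sEV libraries stand apart, so high values were common: 2381 genes exceeded 0.95 with Plin2 and 0 did with Dgat2. Mfsd12 was nearest to Plin2 (r 0.9996), with 142 to 144 TPM in SNI sEV, 56.5 to 58.9 TPM in sham sEV and 143 to 156 TPM in PBS libraries. Slco2b1 was nearest to Plin3 (0.9991), Palm to Dgat1 (0.9712), Stx18 to Dgat2 (0.8893), Nup155 to Soat1 (0.9974) and Isyna1 to Pnpla2 (0.9696). Gask1b was nearest to Abhd5 (0.9975), Tagln2 to Hilpda (0.9966), F2r to Mgll (0.9899) and Tmem176b to Lipe (0.9957). Tmem176b, like Lipe, was highest in the sham sEV libraries, with 351 to 478 TPM in SNI sEV, 714 to 784 TPM in sham sEV and 256 to 361 TPM in PBS libraries. Isyna1, like Pnpla2, was below every PBS library in both vesicle groups, with 72.4 to 73.2 TPM in SNI sEV, 72.7 to 76.6 TPM in sham sEV and 82.3 to 96.0 TPM in PBS libraries.

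Ordered by mean level in PBS cultures, the genes ran from Plin2 (1024 ± 73.5 TPM) through Soat1 (153 ± 19.2), Plin3 (119 ± 3.63), Pnpla2 (60.5 ± 4.70), Abhd5 (59.4 ± 5.53), Hilpda (33.7 ± 2.87), Dgat1 (16.1 ± 1.32), Mgll (15.1 ± 0.725) and Lipe (8.19 ± 0.866) to Dgat2 (5.38 ± 0.369 TPM, SD, n = 4). Pnpla2 and Abhd5, and Dgat1 and Mgll, did not differ beyond their spread. In sham sEV cultures Pnpla2 (51.2 ± 1.17 TPM) stood above Abhd5 (31.9 ± 0.813 TPM), and Lipe (14.4 ± 0.169 TPM) did not differ from Hilpda (14.1 ± 1.09 TPM) beyond the spread (SD, n = 3). In SNI sEV cultures Plin2 averaged 981 ± 26.8 TPM, Pnpla2 50.0 ± 0.861 TPM, Abhd5 53.9 ± 3.15 TPM, Hilpda 31.7 ± 2.70 TPM and Lipe 9.65 ± 0.866 TPM (SD, n = 3).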

How the data were processed

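The study sequenced mRNA of 10 libraries of mouse microglia. The authors deposited TPM per gene symbol, and per the file headers a second table of 2375 genes with, for each of 3 comparisons, a signed fold change (a score) and an FDR (taken here as a p-value after adjustment). The tools named in the submitters' processing notes are featureCounts 2.0.2, Subread, BWA and bcl2fastq, and the build is mm10. Annotation, strand setting and the authors' test are not given in the sources used here. Coordinates come from GENCODE on GRCm38.

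Here log2(TPM + 1) of 14806 genes that averaged 1 TPM or more was fitted with limma 3.58.1 in R 4.3.3, with 1 mean per group, a shared spread (eBayes with a trend) and two-sided Benjamini-Hochberg adjusted p-values. The fit was tested on simulated data. The genes and lists were chosen with earlier results of these data known. All 10 genes are named, and of each list up to 3 called genes with the smallest p, with others chosen after their values were seen. A list of genes of droplet-rich microglia was not used, because its membership could not be sourced.

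Libraries of a group were not duplicates: 1 to 10 of 14806 genes had identical values in any pair. Same-numbered SNI sEV and PBS libraries deviated together (correlations 0.363, 0.228 and 0.154 in 3 of 3 pairs), a hint of pairing from these data and not from the labels. The main fit did not pair libraries, and a replicate block was tried only as an alternative. Differently numbered pairs ran from -0.351 to 0.220, and 3 of them exceeded 0.1 (SNI sEV 2 with PBS 3 at 0.220, SNI sEV 1 with PBS 4 at 0.133, SNI sEV 3 with PBS 2 at 0.108), so the hint is weak. Deviations were taken from the mean of each group, which forces some pairs to be negative where others are positive. The contrast between same-numbered and other pairs is therefore partly set by this step. Same-numbered sham sEV and PBS pairs (-0.018 to 0.051) and SNI sEV and sham sEV pairs (0.017 to 0.077) had lower correlations. Other settings tried were a pseudocount of 0.1 or 0.5, a filter at a mean of 5 TPM or none, quantile and median-of-ratios scaling, a robust estimate of the spread, a fit on only the 2 groups compared, sample weights, a replicate block, and each library left out. A replicate block on the SNI sEV and PBS libraries alone was chosen after seeing the data.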

Additional observations from a re-analysis of the deposited data

Results flagged for a closer look

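Soat1 in PBS replicate 1 stood apart from the other PBS libraries. It had 124 TPM there, against 159, 163 and 164 TPM in the other 3. The gap to the nearest was 0.862 of the range of the group, above Dixon's critical value for 4 samples. Chance gives such a gap in about 1 in 20 groups, and 10 were examined, 1 per gene. Without this library the Soat1 difference between SNI sEV and PBS was -0.02 on the log2 scale, in place of 0.08, and was called in neither case. PBS replicate 1 also differed as a whole library. It had 14577 genes at 1 TPM or more, against 14863 to 14973 in the other PBS libraries. Its median-of-ratios scale factor was 0.999, against 1.07 to 1.11. The part of this in the Soat1 value was not tested.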

How the results depend on the processing

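Plin2, Plin3, Soat1, Hilpda, Mgll, Abhd5 and Lipe kept direction and call in 20 of 20 alternatives for SNI sEV against sham sEV and for sham sEV against PBS. For SNI sEV against sham sEV, members called lower were 3 (median-of-ratios scaling) and 2 (quantile normalization), in place of 1. Dgat1 turned to -0.036 and -0.040, and Dgat2 ranged from -0.081 to 0.013 over libraries left out. Dgat1 was not called in 5 of 20 alternatives. For sham sEV against PBS, members called higher were 2 under both scalings, in place of 1. Dgat2 turned to 0.231 and 0.325 (-0.050 to 0.045 over libraries left out), and Pnpla2 to 0.046 under median-of-ratios scaling.

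For SNI sEV against PBS, the 1 member called, Pnpla2, became 0 under median-of-ratios scaling, with only the 2 groups compared, with the replicate block, and with the replicate block on the 2 groups alone. With no filter Plin3 was called in its place. Sample weights gave 4 members called, 1 higher (Lipe) and 3 lower (Pnpla2, Plin3 and Abhd5). Over libraries left out the count ran from 0 to 2, all lower, with 0 without any 1 SNI sEV library or PBS replicate 4 and 2 (Pnpla2 and Plin3) without PBS replicate 1. Genes called were 790, 4002 with sample weights, 481 with only the 2 groups, 461 with the replicate block on them, and 370 to 1155 over libraries left out. The lowest was without SNI sEV replicate 1 and the highest without PBS replicate 1. Counts were 437 without SNI sEV replicate 2, 501 without SNI sEV replicate 3 and 503 without PBS replicate 3. Plin2 turned to 0.009 under quantile normalization, Dgat1 to 0.024 with sample weights, and Soat1 ranged from -0.020 to 0.143 over libraries left out. The replicate block changed no other member's call. Where not stated, the cause was not tested. Depth is unknown, so counting error could not be separated from the spread between libraries.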
